A study of Mus musculus with 18 samples.

Results

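Fatty acids and cholesterol are built from the same precursor, cytosolic acetyl-CoA, and the set described here holds 33 mouse genes of these routes among the 18193 genes measured. The set was a list of symbols, and it was chosen, like the further gene lists below, with earlier results of these data known. It comprises 11 enzymes of fatty acid synthesis, elongation and desaturation (Acly, Acss2, Acaca, Fasn, Elovl1, Elovl5, Elovl6, Scd1, Scd2, Fads1 and Fads2) and 11 enzymes of the sterol route (Hmgcs1, Mvk, Mvd, Idi1, Fdps, Fdft1, Sqle, Lss, Nsdhl, Sc5d and Dhcr7). The other members are 4 regulators (Srebf1, Srebf2, Scap and Insig1) and 7 genes of lipid activation, transport and storage (Gpam, Lpin1, Dgat2, Plin2, Acsl4, Fabp5 and Stard4). Where several probe sets carried only the symbol of a gene, the brightest of them on average stood for it. All 33 members were on the array, 26 of them with several such probe sets and 7 with a single one, and 0 were among the 6064 dimmest genes.

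The arrays measured lung tumours and control lung from the hybrid mouse strain B6C3F1/N in a long-term cobalt inhalation study. Mice were 5 to 6 weeks old at the start and breathed an aerosol of cobalt metal particles at 1.25, at 2.5 or at 5 mg/m3, with 0 mg/m3 as the unexposed level, for 6 hours a day on 5 days a week over up to 105 weeks. There were 6 lung tumours from cobalt-exposed mice (cobalt tumours), 6 lung tumours labelled spontaneous (spontaneous tumours) and 6 lungs of vehicle controls (control lungs). The exposure concentration, sex and age at death of each sample are not in its labels, and neither is a genetic driver of the tumours. Tumours were dissected away from the surrounding lung, whereas the labels call the control samples lung, so each comparison sets tumour tissue against control lung. In such bulk samples, fewer cells of a type and less RNA per cell cannot be told apart. Whether each array stands for its own mouse is not stated in the labels, so the p-values cover array-to-array spread, which may be technical in part.

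In most cells, the sterol regulatory element-binding proteins (SREBPs, encoded by Srebf1 and Srebf2) switch on these enzymes. The escort protein SCAP carries them out of the endoplasmic reticulum when sterols are scarce, and INSIG proteins hold the complex back when sterols are plentiful. In the lung, alveolar type 2 cells, the cells that secrete surfactant, make large amounts of phospholipid and depend on fatty acid synthesis for it.

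Sterol control acts through short DNA letters near gene starts, so the start regions of 2 members are shown: Hmgcs1, the entry enzyme of the sterol route, and Fasn, the enzyme that builds palmitate. The windows run from 250 bases before to 50 bases after the RefSeq transcript start (build GRCm38.p6). Capitals mark every match, on either strand, to a classic sterol regulatory element (TCACNCCAC) or to the inverted CCAAT box that the factor NF-Y reads (ATTGG). The Hmgcs1 window is chr13:119690101-119690400 on the plus strand and the Fasn window is chr11:120824498-120824797 on the minus strand.
Hmgcs1: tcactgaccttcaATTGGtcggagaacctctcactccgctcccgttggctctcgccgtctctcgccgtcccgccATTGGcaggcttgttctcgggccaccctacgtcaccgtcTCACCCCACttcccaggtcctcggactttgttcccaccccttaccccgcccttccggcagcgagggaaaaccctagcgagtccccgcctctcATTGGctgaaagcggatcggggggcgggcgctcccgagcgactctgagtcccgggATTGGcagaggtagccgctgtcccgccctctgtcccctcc
Fasn: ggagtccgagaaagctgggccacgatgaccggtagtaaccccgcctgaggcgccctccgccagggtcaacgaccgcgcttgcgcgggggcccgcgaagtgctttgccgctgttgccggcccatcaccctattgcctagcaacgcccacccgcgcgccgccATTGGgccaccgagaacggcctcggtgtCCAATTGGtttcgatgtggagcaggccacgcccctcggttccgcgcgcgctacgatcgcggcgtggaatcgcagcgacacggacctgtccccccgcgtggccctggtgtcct
The Hmgcs1 window held the sterol element at 137 bases before the start, together with 4 CCAAT matches. The Fasn window held CCAAT matches on both strands, which overlap in 1 place, and no match to these sterol element letters. A window was given for 24 of the 33 members. Of those 24, 1 (Hmgcs1) held the sterol element, against 1.44% of 27025 genes with a window, and 18 (75.0%) held the CCAAT letters on either strand, against 41.1% of genes. These are letter matches in a 300-base window and were not tested.

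Several arrays stood apart, and the results that rest on them are given with and without them. Across genes, cobalt tumour 6 correlated with the control lungs at a mean r of 0.969 and with the other cobalt tumours at 0.945, whereas the other 5 cobalt tumours correlated with control lungs at 0.891 to 0.925. Its endothelial markers fell least of the 12 tumours, with a mean log2 difference from control lung of -1.08, against -3.62 to -2.11 in the others. Alveolar type 2 markers, 11 measured, lay above control lung by 0.75 to 0.83 in all 6 cobalt tumours and by 0.82 to 1.05 in spontaneous tumours 1, 3, 4 and 5. Their mean difference from control lung was -0.22 in spontaneous tumour 2 and -0.40 in spontaneous tumour 6. Xist RNA was low (5.95 to 6.82) and Y-linked RNA high in cobalt tumours 1 and 4 and spontaneous tumours 1, 2, 3 and 5. Every control lung, by contrast, had Xist at 12.15 or above. Sex, as read from these RNAs, was thus partly confounded with group in each comparison with control lung. Fits within arrays of high Xist (above 10) thus keep only spontaneous tumours 4 and 6 and cobalt tumours 2, 3, 5 and 6 beside the control lungs. The description of control lung 6 names a spontaneous tumour, against its title, source and group. Its mean r was 0.989 with the other control lungs and 0.920 with spontaneous tumours, and it is counted among the control lungs here.

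The members were mixed in direction. All values are on the log2 scale of the deposited array values, and a gene was called at an adjusted p below 0.05 over all 18193 genes (limma). In cobalt tumours 6 members rose (Acly, Fasn, Fdft1, Srebf1, Acsl4 and Fabp5) and 1 fell (Gpam) relative to control lung. In spontaneous tumours 10 rose (the same 6, with Hmgcs1, Mvd, Dhcr7 and Plin2) and 3 fell (Gpam, Elovl5 and Srebf2). The other 20 members passed the test in neither comparison.

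Counted in either direction, the share of members called was below that of all genes in cobalt tumours and near it in spontaneous tumours. The share called higher was near that of all genes in cobalt tumours and above it in spontaneous tumours. The share called lower was below that of all genes in each tumour group. Among cobalt tumours 7 of 33 members (21.2%) were called, against 34.0% of all genes, with 18.2% of members higher against 14.7% of genes and 3.03% lower against 19.3%. Among spontaneous tumours 13 of 33 members (39.4%) were called, against 34.6% of all genes, with 30.3% of members higher against 16.4% of genes and 9.09% lower against 18.2%. The median log2 difference of the members was -0.01 in cobalt tumours and 0.16 in spontaneous tumours, beside -0.03 over all genes in each. All 6 tumour arrays lay above all 6 control arrays for 6 members in cobalt tumours (8.10% of all genes) and for 5 in spontaneous tumours (9.21%). The reverse held for 0 members in cobalt tumours (10.8% of genes) and for 1, Gpam, in spontaneous tumours (11.9%). The 2 comparisons share their control arrays, so a like direction in both is no second measurement. The plot of differences by gene gives each member's estimate with its interval.

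**Figure D1:**
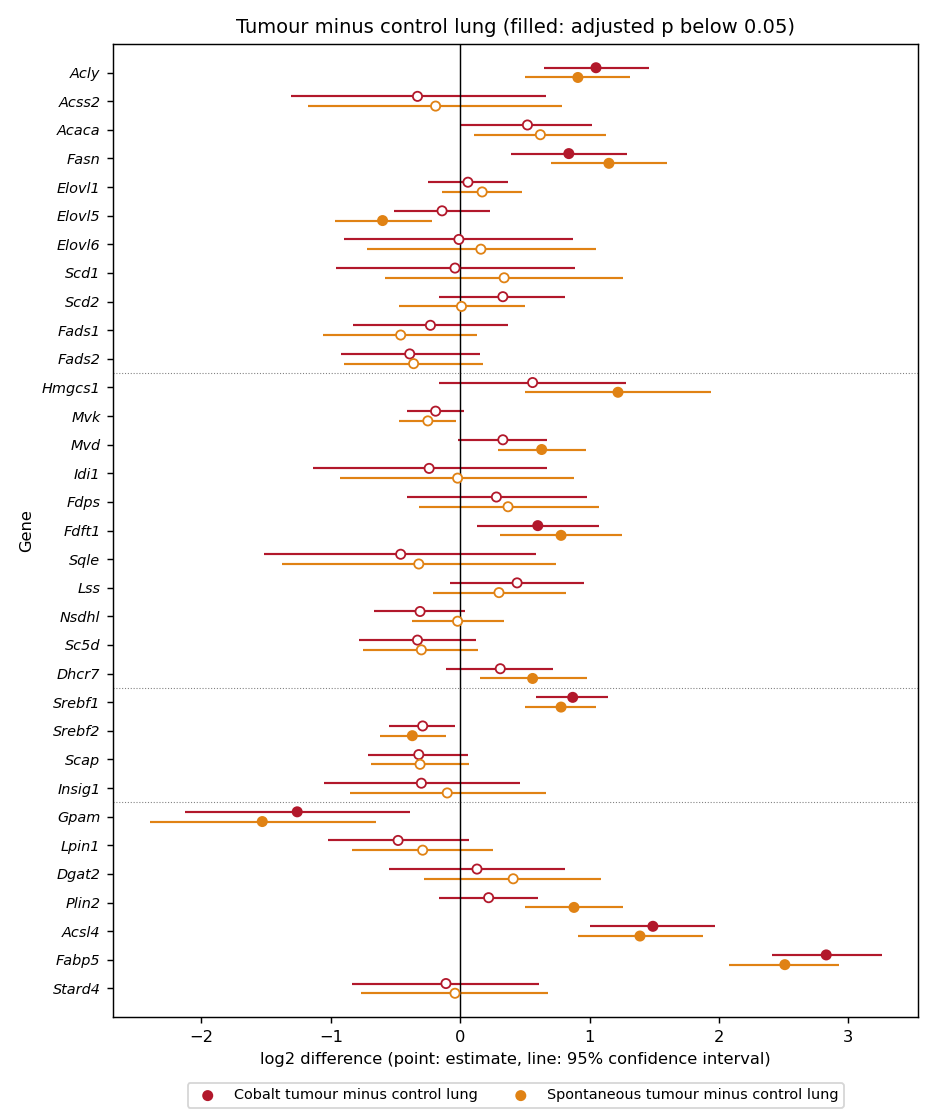
Difference of cobalt tumours (red) and spontaneous tumours (orange) from control lung for each of the 33 members on the log2 scale, with 95% confidence intervals from limma and 6 arrays a group. Dotted lines part the fatty acid, sterol, regulator and lipid handling genes, and filled points mark the 7 members called in cobalt tumours and the 13 called in spontaneous tumours.

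Of the 11 fatty acid genes, Acly and Fasn rose in both tumour groups, Elovl5 fell in spontaneous tumours, and the other 8 passed in neither group. In cobalt tumours 2 rose and 0 fell, with a median log2 difference of -0.01. In spontaneous tumours 2 rose and 1 fell, with a median of 0.16.

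Acly encodes ATP citrate lyase, which splits exported citrate into the acetyl-CoA that feeds both routes. Its log2 level was 11.75, 12.19 and 12.43 (lowest, median, highest) in cobalt tumours, 11.31, 12.05 and 12.88 in spontaneous tumours, and 10.91, 11.09 and 11.24 in control lungs. Every tumour array was above every control array. It rose 2.07-fold in cobalt tumours (log2 1.05 ± 0.19 SE, adjusted p = 0.000378) and 1.87-fold in spontaneous tumours (log2 0.91 ± 0.19 SE, adjusted p = 0.00135). Spontaneous tumour 5 was the highest and spontaneous tumour 2 the lowest of the 12 tumours.

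Fasn, fatty acid synthase, had log2 levels of 11.34, 11.53 and 11.89 in cobalt tumours, 10.90, 12.07 and 12.44 in spontaneous tumours, and 10.44, 10.67 and 11.09 in control lungs. The cobalt tumours did not overlap the control lungs, and among the spontaneous tumours only tumour 2 lay within the control range. Fasn rose 1.79-fold in cobalt tumours (adjusted p = 0.00524) and 2.22-fold in spontaneous tumours (adjusted p = 0.000456). Acaca, acetyl-CoA carboxylase, makes the malonyl-CoA that Fasn uses, and averaged 9.51 ± 0.30 in cobalt tumours, 9.62 ± 0.68 in spontaneous tumours and 9.0 ± 0.17 in control lungs (SD, n = 6 each). It missed the threshold by limma (log2 0.52 in cobalt tumours, adjusted p = 0.111, and 0.62 in spontaneous tumours, adjusted p = 0.0545). Without spontaneous tumours 2 and 6, its difference in spontaneous tumours was 1.01 and passed (adjusted p = 0.000211). Within arrays of high Xist, its difference was 0.37 in spontaneous tumours (adjusted p = 0.191) and 0.62 in cobalt tumours (adjusted p = 0.0108). By an exact permutation test it passed in cobalt tumours (adjusted p = 0.0183) and not in spontaneous tumours (adjusted p = 0.134). Acss2, which makes acetyl-CoA from acetate, ran from 8.02 to 9.0 in cobalt tumours and from 5.98 to 10.20 in spontaneous tumours, against 8.49 to 8.92 in control lungs, and did not pass.

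Elovl5, an elongase of polyunsaturated fatty acids, was the 1 fatty acid gene that fell, and it did so in spontaneous tumours. Its log2 level was 11.73, 12.15 and 12.53 in cobalt tumours, 11.22, 11.75 and 12.10 in spontaneous tumours, and 11.92, 12.33 and 12.52 in control lungs. The groups overlapped, with 3 spontaneous tumours below every control array. Elovl5 fell by 0.60 in spontaneous tumours (1.51-fold lower, adjusted p = 0.0143), whereas in cobalt tumours the difference was -0.14 (adjusted p = 0.588). The call was lost without spontaneous tumours 2 and 6 (log2 -0.45, adjusted p = 0.0800). It was also lost within arrays of high Xist (log2 -0.69, adjusted p = 0.0695). There only spontaneous tumours 4 and 6 remained, and the difference was no smaller.

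The other elongases and desaturases did not pass in either tumour group in the limma fit of all arrays. Scd1 and Scd2 place the double bond of oleate, Fads1 and Fads2 desaturate polyunsaturated fatty acids, Elovl6 lengthens palmitate and Elovl1 makes very long saturated chains. Scd1 ran from 11.72 to 14.30 in cobalt tumours and from 11.57 to 13.97 in spontaneous tumours, against 12.18 to 13.01 in control lungs. Elovl6 ran from 5.41 to 7.60 in cobalt tumours and from 5.19 to 8.03 in spontaneous tumours, against 5.99 to 6.55 in control lungs. For both genes the tumours spread to either side of the controls. The differences from control lung of these 6 genes lay between -0.46 (Fads1 in spontaneous tumours) and 0.34 (Scd1 in spontaneous tumours). By an exact permutation test Scd2 passed in cobalt tumours (log2 0.33, adjusted p = 0.0297). Without spontaneous tumours 2 and 6, Elovl1 rose by 0.39 in spontaneous tumours (limma adjusted p = 0.0155). The second probe set of Scd1 gave 1.01 in spontaneous tumours and did not pass (limma adjusted p = 0.173).

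**Figure D2:**
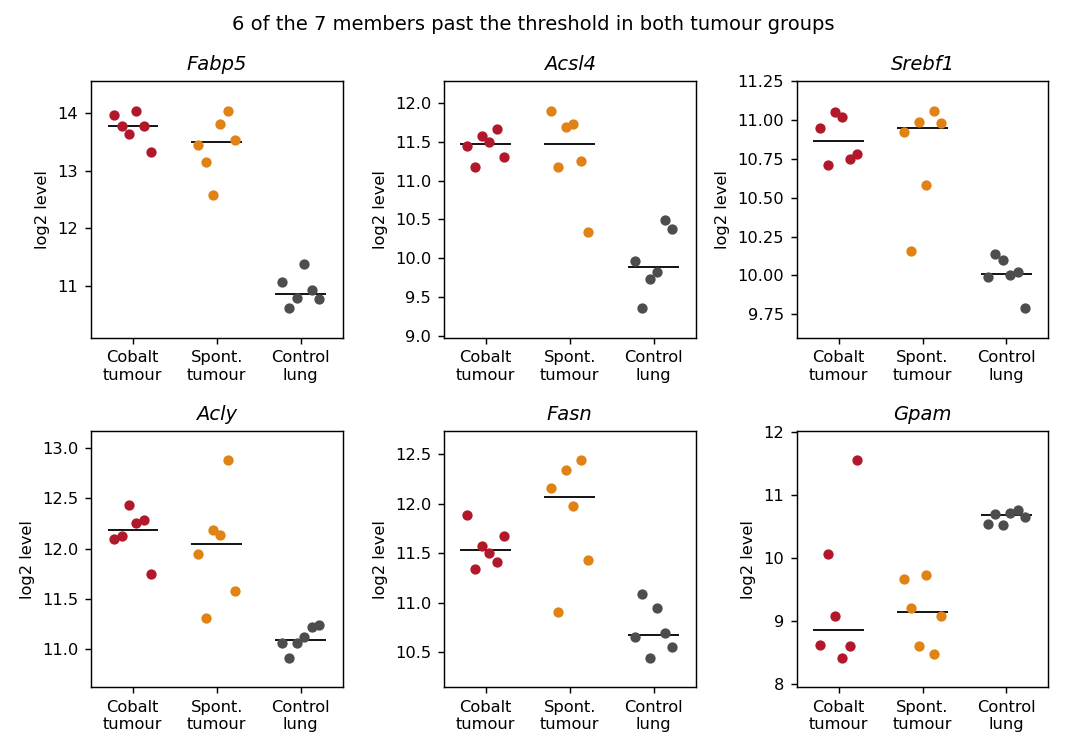
Log2 level in each of the 6 arrays per group (points) with the group median (line) for 6 of the 7 members called in both tumour groups. Acly, Srebf1 and Fabp5 lie higher in every tumour than in any control lung, and Gpam lies lower except in 1 cobalt tumour at 11.55.

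The sterol genes did not move as a block. In cobalt tumours 1 of 11 rose (Fdft1) and 0 fell, with a median log2 difference of 0.28. In spontaneous tumours 4 rose (Hmgcs1, Mvd, Fdft1 and Dhcr7) and 0 fell, with a median of 0.30. The sterol genes that passed belong to the entry, the middle and the end of the route, and they are interspersed with enzymes that did not pass.

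Hmgcs1 encodes HMG-CoA synthase, whose start region with its sterol element is printed above. The log2 level was 10.07, 11.19 and 11.91 in cobalt tumours, 10.40, 11.78 and 12.83 in spontaneous tumours, and 10.02, 10.49 and 10.71 in control lungs. Of the spontaneous tumours 5 were above all controls, and of the cobalt tumours 4 were. Hmgcs1 rose 2.33-fold in spontaneous tumours (log2 1.22 ± 0.34 SE, adjusted p = 0.0101), and in cobalt tumours the difference was 0.56 (adjusted p = 0.227). The cobalt tumours were not shown to differ from the spontaneous ones (difference -0.66, 95% interval -1.38 to 0.06, adjusted p = 0.483). Within arrays of high Xist, with only spontaneous tumours 4 and 6 left, the spontaneous difference was 1.03 and missed the threshold (adjusted p = 0.0624).

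Mvd decarboxylates mevalonate diphosphate. It stood at 6.83, 7.40 and 7.77 in cobalt tumours, 7.06, 7.73 and 8.03 in spontaneous tumours, and 6.79, 7.08 and 7.23 in control lungs. In each tumour group 5 of 6 arrays exceeded all controls. Mvd rose 1.55-fold in spontaneous tumours (adjusted p = 0.0055), and the difference in cobalt tumours was 0.33 (adjusted p = 0.135). Its second probe set gave a smaller difference in spontaneous tumours that did not pass (log2 0.27, adjusted p = 0.0796).

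Fdft1, squalene synthase, commits the route to sterols. Log2 levels were 8.45, 9.08 and 10.06 in cobalt tumours, 8.82, 9.27 and 10.16 in spontaneous tumours, and 8.30, 8.56 and 8.79 in control lungs. The spontaneous tumours did not overlap the controls, and 1 cobalt tumour did. Fdft1 rose 1.51-fold in cobalt tumours (adjusted p = 0.0470) and 1.71-fold in spontaneous tumours (adjusted p = 0.0118). The cobalt call was lost in 19 of 31 other settings, among them the fit without cobalt tumour 6 (log2 0.42, adjusted p = 0.0981).

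Dhcr7 reduces 7-dehydrocholesterol to cholesterol. It stood at 7.0, 7.76 and 8.39 in cobalt tumours, 7.48, 8.16 and 8.33 in spontaneous tumours, and 7.33, 7.43 and 7.62 in control lungs. Of the spontaneous tumours 5 were above all controls, whereas the cobalt tumours ran from below to above them. Dhcr7 rose 1.48-fold in spontaneous tumours (adjusted p = 0.0328), a call lost in 8 of 18 fits that each left out 1 array, where its adjusted p reached 0.0721 (without spontaneous tumour 1). In cobalt tumours the difference was 0.31 (adjusted p = 0.252).

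The other 7 sterol enzymes did not pass in either group in the limma fit of all arrays. They are Mvk (mevalonate kinase), Idi1 (isopentenyl diphosphate isomerase), Fdps (farnesyl diphosphate synthase), Sqle (squalene epoxidase), Lss (lanosterol synthase), Nsdhl and Sc5d, the last pair acting on the sterol ring after lanosterol. Their differences lay between -0.46 (Sqle) and 0.44 (Lss) in cobalt tumours and between -0.32 (Sqle) and 0.37 (Fdps) in spontaneous tumours. Lss in cobalt tumours ran from 7.14 to 8.16, above all control lungs at 6.91 to 7.13, yet did not pass in the fit (adjusted p = 0.184). The second probe set of Sc5d, at 5.75, 6.75 and 7.77 in cobalt tumours, 6.39, 6.79 and 7.70 in spontaneous tumours, and 7.79, 8.39 and 8.56 in control lungs, fell by 1.52 in cobalt tumours (adjusted p = 0.000719) and fell by 1.31 in spontaneous tumours (adjusted p = 0.00253). The brighter probe set of Sc5d gave -0.33 in cobalt tumours and -0.30 in spontaneous tumours and did not pass, so the call for Sc5d depends on the probe set.

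Sterol genes spread widely among the tumours of a group. Sqle, the enzyme that oxidises squalene, stood at 8.08, 7.91, 8.74, 7.22, 7.99 and 10.22 in cobalt tumours 1 to 6, at 8.23, 8.63, 6.48, 8.57, 8.94 and 10.18 in spontaneous tumours 1 to 6, and between 8.28 and 9.22 in control lungs. Cobalt tumour 6 and spontaneous tumour 6 were above every control lung, and cobalt tumours 1, 2, 4 and 5 and spontaneous tumours 1 and 3 were below. Sqle averaged 8.36 ± 1.03 in cobalt tumours, 8.5 ± 1.2 in spontaneous tumours and 8.83 ± 0.33 in control lungs (SD, n = 6 each), and neither difference passed (adjusted p = 0.522 for cobalt and 0.654 for spontaneous tumours).

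The same arrays stood high for other sterol enzymes. Idi1 was 10.86 in cobalt tumour 6 and 8.2 to 8.88 in the other 5 cobalt tumours. In spontaneous tumour 6 it was 10.46, against 7.70 to 9.90 in the other 5, and the control lungs lay at 8.68 to 9.46. Fdps was 10.84 in cobalt tumour 6 and 10.77 in spontaneous tumour 6, against 8.80 to 9.69 in control lungs. Lss was 8.16 in cobalt tumour 6 and 8.65 in spontaneous tumour 6, against 6.91 to 7.13 in control lungs. In the plot of sterol members these arrays sit at the top of their groups for Idi1, Fdps, Sqle and Lss.

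**Figure D3:**
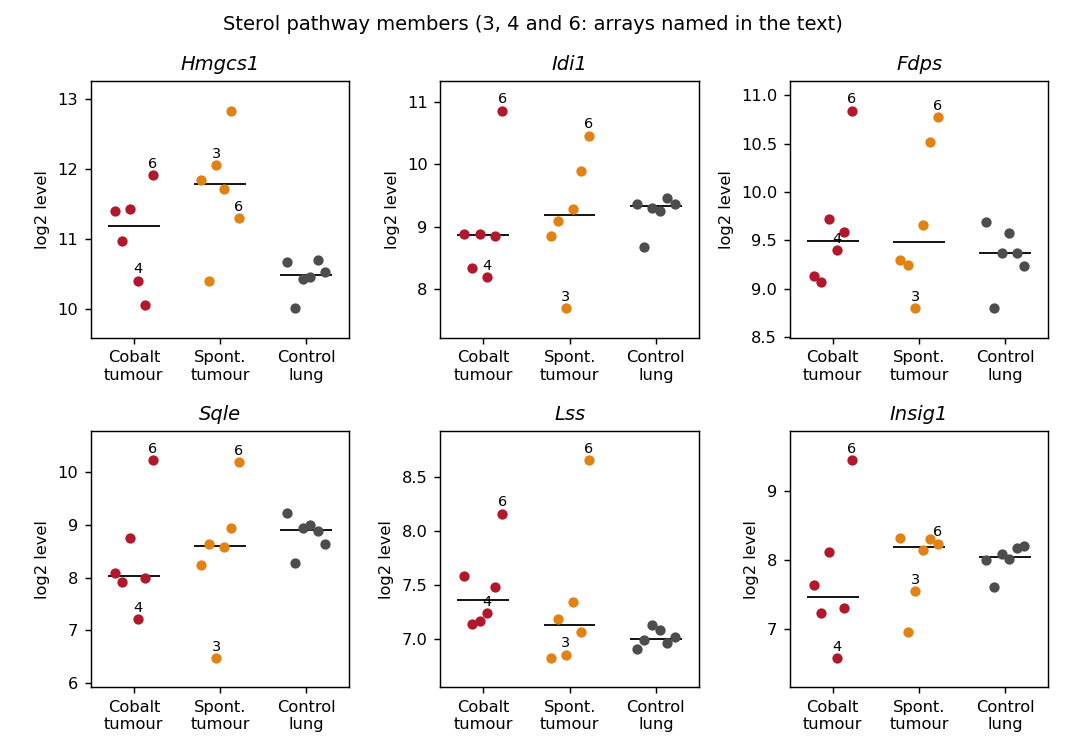
Log2 level in each of the 6 arrays per group (points) with the group median (line) for 5 sterol enzymes and the regulator Insig1. Digits mark tumour arrays 3, 4 and 6. Cobalt tumour 6 is the highest cobalt tumour in every panel, and spontaneous tumour 3 is high for Hmgcs1 (12.06) but low for Sqle (6.48).

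Counted over the route, cobalt tumour 6 or spontaneous tumour 6 was the highest of the 12 tumours for 9 of 11 sterol genes and 18 of 33 members, against 24.1% of all genes. Each of these tumours was above all control lungs for 9 of 11 sterol genes (81.8%) and below all of them for 0. Over all genes, cobalt tumour 6 was above all control lungs for 21.2% and spontaneous tumour 6 for 28.9%. At the other end, cobalt tumour 4 or spontaneous tumour 3 was the lowest tumour for 6 of 11 sterol genes, against 14.2% of all genes. These arrays were picked after their values were seen, so the counts are descriptions with no test.

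These high arrays differed from each other in marker levels. Cobalt tumour 6 had a cell cycle marker mean of -0.65 relative to control lung and an alveolar type 2 marker mean of 0.75, whereas spontaneous tumour 6 had 2.83 for cell cycle and -0.40 for alveolar type 2 markers. Alveolar macrophage markers stood at 0.73 in cobalt tumour 6 and 0.41 in spontaneous tumour 6, within the range of the other tumours (-0.45 to 2.49). Adipocyte markers, 5 measured, of which 3 were among the 6064 dimmest genes, stood at -0.04 in cobalt tumour 6 and at -0.99 to -0.58 in the other 11 tumours, against -0.34 to 0.85 in control lungs. The part of these cell types in the sterol values was not tested.

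Branch means per array put the same contrast in 1 number each, as the plot of branch means shows. The mean log2 difference of the 11 sterol genes from control lung was 0.07, -0.27, 0.16, -0.36, -0.06 and 1.00 in cobalt tumours 1 to 6. It was 0.08, 0.09, -0.34, 0.28, 0.55 and 0.95 in spontaneous tumours 1 to 6, and control lungs lay between -0.23 and 0.17. Fatty acid means ran from -0.19 to 0.58 in cobalt tumours and from -0.48 to 0.57 in spontaneous tumours, against -0.13 to 0.08 in control lungs. The 2 branches did not always rank the tumours alike: spontaneous tumour 6 had 0.95 for sterol genes and 0.14 for fatty acid genes, and spontaneous tumour 2, the lowest tumour for 6 of 11 fatty acid genes, had 0.09 for sterol genes. The mean of 17 further sterol genes, listed apart from the members, was also highest in cobalt tumour 6 and spontaneous tumour 6, at 0.51 in each, against -0.22 to 0.30 in the other tumours and -0.16 to 0.06 in control lungs.

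**Figure D4:**
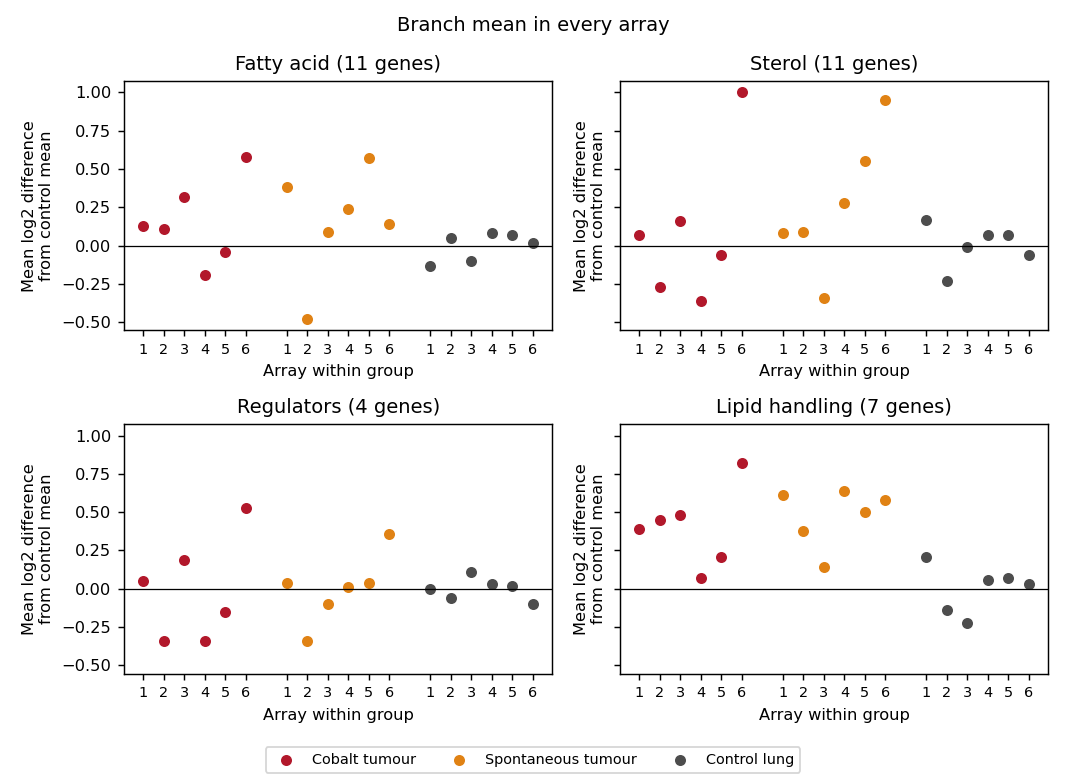
Mean log2 difference from the control lung mean over the genes of each branch, by array, for cobalt tumours, spontaneous tumours and control lungs (6 arrays each). Cobalt tumour 6 (1.00) and spontaneous tumour 6 (0.95) stand highest in the sterol panel, while control lungs stay between -0.23 and 0.17.

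Within the groups, tumours varied more than control lungs for nearly every member. The within-group SD over tumours exceeded that of the control lungs for 32 of 33 members (97.0%), beside 72.6% of all genes. Its median was 0.50 in tumours and 0.19 in control lungs for the members, and 0.23 in tumours and 0.16 in control lungs for all genes. Sqle (1.12), Acss2 (1.06), Scd1 (0.96), Idi1 (0.95), Elovl6 (0.94) and Gpam (0.94) had the widest within-group tumour SDs. The heat map of members by array shows these rows crossing from blue to red within 1 tumour group.

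**Figure D5:**
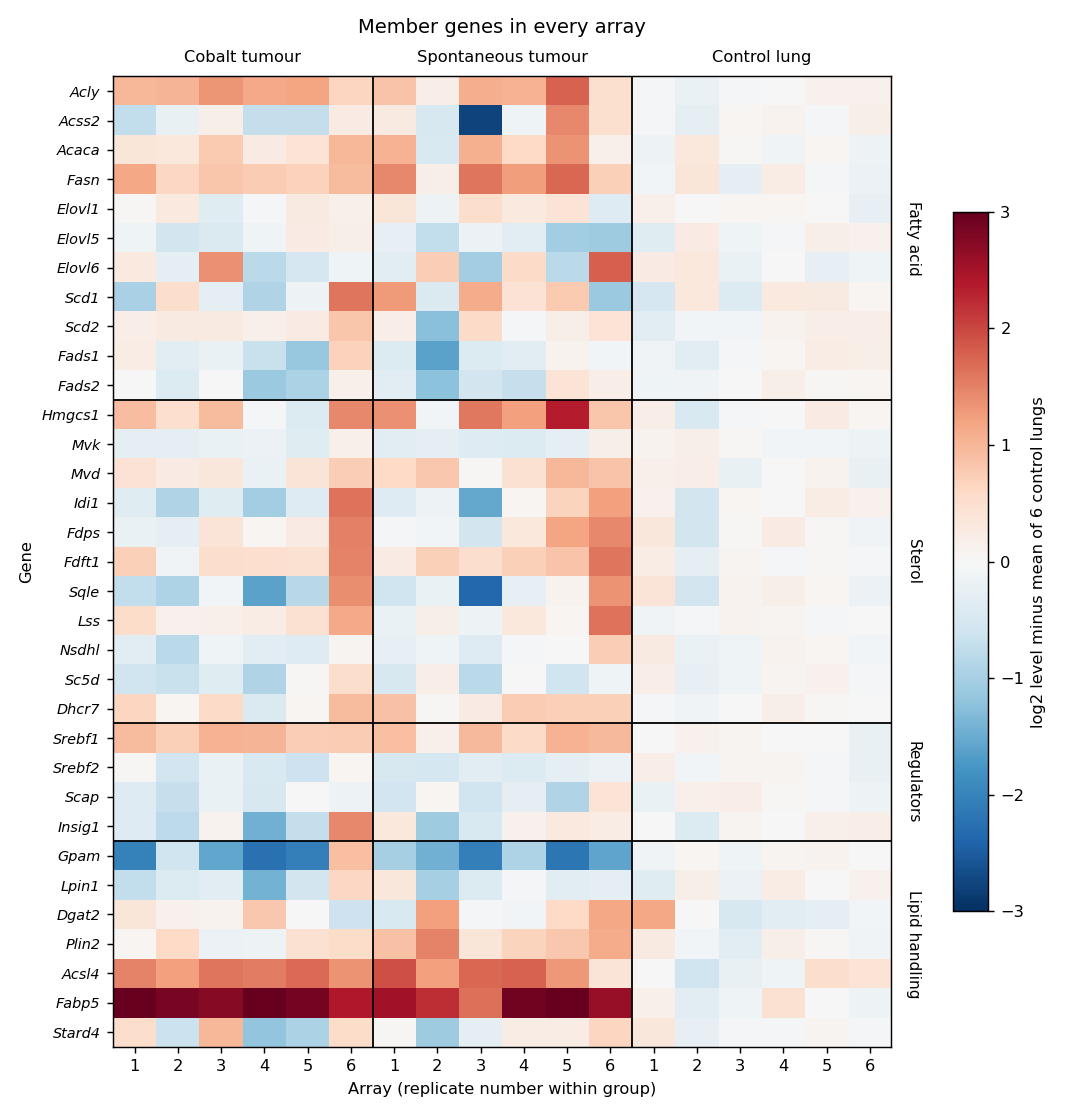
Log2 level of each of the 33 members (rows, parted by branch) in each of the 18 arrays (columns), as the difference from the mean of the 6 control lungs; red is higher, blue lower. Fabp5 is red in all 12 tumours, Gpam is blue in all but cobalt tumour 6, and Idi1, Fdps and Sqle are red in cobalt tumour 6 and spontaneous tumour 6.

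Among the 4 regulators, Srebf1 rose in both tumour groups and its partners did not rise. Srebf1 encodes the SREBP mainly tied to fatty acid genes. Its log2 level was 10.71, 10.86 and 11.05 in cobalt tumours, 10.16, 10.95 and 11.06 in spontaneous tumours, and 9.79, 10.01 and 10.14 in control lungs. No tumour overlapped the control lungs, and spontaneous tumour 2 was nearest to them. Srebf1 rose 1.82-fold in cobalt tumours (log2 0.87 ± 0.13 SE, adjusted p = 6.63e-05) and 1.71-fold in spontaneous tumours (log2 0.78 ± 0.13 SE, adjusted p = 0.000186).

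Srebf2, the SREBP mainly tied to sterol genes, stood at 8.67, 8.96 and 9.34 in cobalt tumours, 8.77, 8.91 and 9.12 in spontaneous tumours, and 9.07, 9.30 and 9.49 in control lungs. Of the spontaneous tumours 5 were below all controls, and of the cobalt tumours 3 were. Srebf2 fell by 0.37 in spontaneous tumours (1.29-fold lower, adjusted p = 0.0246), and the difference in cobalt tumours was -0.29 (adjusted p = 0.0679). Its second probe set gave differences of the other sign, 0.29 in cobalt tumours (adjusted p = 0.195) and 0.21 in spontaneous tumours (adjusted p = 0.355), so the direction depends on the probe set. Scap averaged 9.36 ± 0.25 in cobalt tumours, 9.37 ± 0.49 in spontaneous tumours and 9.68 ± 0.15 in control lungs (SD, n = 6 each) and did not pass. Its second probe set also gave the other sign, at 0.06 in cobalt tumours and 0.12 in spontaneous tumours. Insig1, itself a target of the SREBPs, ran from 6.58 in cobalt tumour 4 to 9.45 in cobalt tumour 6, with spontaneous tumours at 6.96 to 8.32 and control lungs at 7.61 to 8.21, and did not pass (adjusted p = 0.575 for cobalt and 0.862 for spontaneous tumours).

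The widest differences of the set were in lipid handling. In cobalt tumours 2 of 7 genes rose (Acsl4 and Fabp5) and 1 fell (Gpam), with a median log2 difference of 0.13. In spontaneous tumours 3 rose (the same pair with Plin2) and 1 fell (Gpam), with a median of 0.41.

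Fabp5 is a fatty acid-binding protein that carries fatty acids within cells. Its log2 level was 13.33, 13.77 and 14.04 in cobalt tumours, 12.58, 13.49 and 14.03 in spontaneous tumours, and 10.61, 10.85 and 11.37 in control lungs. The lowest tumour exceeded the highest control lung by more than the whole control range. Fabp5 rose 7.12-fold in cobalt tumours (log2 2.83 ± 0.20 SE, adjusted p = 3.88e-08) and 5.68-fold in spontaneous tumours (log2 2.51 ± 0.20 SE, adjusted p = 1.45e-07). Its second probe set gave log2 differences of 3.63 in cobalt tumours and 3.02 in spontaneous tumours.

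Acsl4 couples arachidonic and other long polyunsaturated fatty acids to coenzyme A. Arrays gave log2 levels of 11.18, 11.47 and 11.66 in cobalt tumours, 10.34, 11.47 and 11.90 in spontaneous tumours, and 9.36, 9.89 and 10.49 in control lungs. Cobalt tumours did not overlap the control lungs, and spontaneous tumour 6 alone lay within their range. Acsl4 rose 2.80-fold in cobalt tumours (adjusted p = 8.87e-05) and 2.62-fold in spontaneous tumours (adjusted p = 0.000162).

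Plin2 coats lipid droplets, including those of macrophages. It stood at 11.37, 11.81 and 12.16 in cobalt tumours, 11.91, 12.39 and 13.03 in spontaneous tumours, and 11.23, 11.53 and 11.83 in control lungs. Spontaneous tumours did not overlap the control lungs, whereas 3 of 6 cobalt tumours did. Plin2 rose 1.84-fold in spontaneous tumours (log2 0.88, adjusted p = 0.00101), and the difference in cobalt tumours was 0.22 (adjusted p = 0.382). Alveolar macrophage markers moved in the same group: 6 of the 10 measured rose and 0 fell in spontaneous tumours, with marker means of 0.14 to 2.49, whereas 2 rose and 1 fell in cobalt tumours, with means of -0.45 to 1.04, against -0.40 to 0.39 in control lungs. By array, Plin2 was 12.43, 13.03, 11.91, 12.23, 12.36 and 12.66 in spontaneous tumours 1 to 6. The marker means there were 2.49, 0.14, 1.16, 1.47, 0.92 and 0.41. The part of these markers in the Plin2 difference was not tested.

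Gpam, the mitochondrial acyltransferase that starts glycerolipid synthesis, was the 1 member that fell in both groups. Its log2 level was 8.41, 8.85 and 11.55 in cobalt tumours, 8.47, 9.14 and 9.73 in spontaneous tumours, and 10.52, 10.68 and 10.76 in control lungs. Every spontaneous tumour and 5 of 6 cobalt tumours were below all controls, and cobalt tumour 6 was above them. Gpam fell by 1.26 in cobalt tumours (2.39-fold lower, adjusted p = 0.0251) and fell by 1.53 in spontaneous tumours (2.88-fold lower, adjusted p = 0.00813). Without cobalt tumour 6 the cobalt difference was -1.69 (adjusted p = 9.27e-05). Within arrays of high Xist it missed the threshold, at -0.82 in cobalt tumours (adjusted p = 0.199) and -1.25 in spontaneous tumours (adjusted p = 0.132). Of the tumours, those arrays hold only cobalt tumours 2, 3, 5 and 6 and spontaneous tumours 4 and 6. In each tumour group 12 of 12 endothelial markers and 6 of 10 fibroblast markers fell, while 2 fibroblast markers rose in spontaneous tumours. Their part in the Gpam difference was not tested.

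Lpin1 (phosphatidate phosphatase), Dgat2 (the last step to triglyceride) and Stard4 (a carrier of cholesterol between membranes) did not pass in either group. Lpin1 averaged 8.45 ± 0.66 in cobalt tumours, 8.64 ± 0.44 in spontaneous tumours and 8.93 ± 0.22 in control lungs. Dgat2 averaged 8.0 ± 0.46 in cobalt tumours, 8.28 ± 0.71 in spontaneous tumours and 7.87 ± 0.60 in control lungs, where control lung 1 stood at 9.03 and the others at 7.89 or below. Stard4 averaged 8.67 ± 0.91 in cobalt tumours, 8.74 ± 0.59 in spontaneous tumours and 8.78 ± 0.19 in control lungs (SD, n = 6 each). For Lpin1 and Stard4 the tumours spread more widely than the control lungs.

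Set directly against each other, the tumour groups were not told apart at any member. Of the 33 members 0 passed limma between cobalt and spontaneous tumours, beside 0.0824% of all genes (15 of 18193), and 2 had an unadjusted p below 0.05. Those were Plin2, lower in cobalt tumours (log2 -0.66, 95% interval -1.04 to -0.28, adjusted p = 0.174), and Elovl5, higher in cobalt tumours (log2 0.45, interval 0.08 to 0.83, adjusted p = 0.321). An exact permutation test per gene called 0. With 6 arrays a group its smallest possible p was 0.00216, which cannot pass over 18193 genes unless many genes share it. That 0 therefore adds no support. The estimates ran from -0.66 to 0.45 and their intervals from -1.38 to 1.14, so for the more variable members the intervals reach past 1 log2 unit. The 6 members called only in spontaneous tumours are thus not shown to differ between the tumour groups.

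The fit without cobalt tumour 6 called 10 members in cobalt tumours, 5 higher and 5 lower. Fdft1 no longer passed, and Mvk (log2 -0.26, adjusted p = 0.0440), Sc5d (-0.50, adjusted p = 0.0390), Srebf2 (-0.36, adjusted p = 0.0197) and Lpin1 (-0.69, adjusted p = 0.0161) then fell. Without spontaneous tumour 6, Acaca rose (0.71, adjusted p = 0.0350), Mvk fell (-0.33, adjusted p = 0.00861) and Scap fell (-0.46, adjusted p = 0.0305) in spontaneous tumours, and Dhcr7 no longer passed (0.53, adjusted p = 0.0607). Acly, Fasn, Srebf1, Acsl4 and Fabp5 in both groups, and Plin2 in spontaneous tumours, passed in all 31 other settings. Fasn, Srebf1 and Plin2 have a single probe set, so the settings that change the probe set could not alter their differences.

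Other genes of the same routes also moved in both directions, in proportions that differed between the lists and from the members. For the counts that follow, the shares over all genes were 14.7% higher and 19.3% lower in cobalt tumours. In spontaneous tumours they were 16.4% higher and 18.2% lower. Of 23 measured further fatty acid synthesis genes, 7 rose and 4 fell in cobalt tumours and 8 rose and 4 fell in spontaneous tumours. Me1, malic enzyme, which supplies NADPH for the synthase, averaged 11.27 ± 0.13 in cobalt tumours, 11.92 ± 0.42 in spontaneous tumours and 9.68 ± 0.19 in control lungs, and rose 3.01-fold in cobalt tumours and 4.74-fold in spontaneous tumours (adjusted p = 1.01e-06 and 2.66e-08). Elovl7, another elongase, rose 3.85-fold in each group, and Slc25a1, the citrate exporter of mitochondria, rose 1.43-fold in cobalt tumours and 1.71-fold in spontaneous tumours. Acacb, the carboxylase isoform tied to the control of fatty acid oxidation, fell in both groups. It fell by 0.81 in cobalt tumours and by 0.94 in spontaneous tumours (adjusted p = 0.00222 and 0.00069). Mid1ip1 fell by 1.72 in cobalt tumours and by 0.89 in spontaneous tumours (adjusted p = 0.000396 and 0.0374). Mlxipl, among the 6064 dimmest genes, fell by 0.48 in cobalt tumours and by 0.38 in spontaneous tumours (adjusted p = 0.000602 and 0.00381).

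Of 17 measured further sterol genes, 3 rose and 2 fell in cobalt tumours and 5 rose and 1 fell in spontaneous tumours. Npc2, which carries cholesterol out of lysosomes, rose 1.66-fold in cobalt tumours and 1.37-fold in spontaneous tumours (adjusted p = 1.97e-06 and 0.000179). Nr1h3, the oxysterol receptor LXR alpha, fell by 0.62 in cobalt tumours and fell by 0.44 in spontaneous tumours (adjusted p = 0.00188 and 0.0191). Mbtps2, a protease that frees the SREBPs, rose 1.36-fold in cobalt tumours and 1.49-fold in spontaneous tumours (adjusted p = 0.0334 and 0.00849).

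Of 31 further lipid handling genes, 10 rose and 9 fell in cobalt tumours and 8 rose and 8 fell in spontaneous tumours. Acsl3, Acsl5 and Agpat3, enzymes of acyl-CoA and phosphatidate formation, all rose. Acsl3 rose 4.13-fold in cobalt tumours and 2.49-fold in spontaneous tumours (adjusted p = 2.56e-05 and 0.00127). Acsl5 rose 1.46-fold in cobalt tumours and 1.53-fold in spontaneous tumours, and Agpat3 rose 1.47-fold in cobalt tumours and 1.52-fold in spontaneous tumours. Agpat4, by contrast, fell by 1.08 in cobalt tumours and fell by 1.11 in spontaneous tumours (adjusted p = 1.59e-07 and 1.20e-07). Lipe, hormone-sensitive lipase, fell by 2.11 in cobalt tumours and fell by 2.04 in spontaneous tumours (adjusted p = 6.32e-06 and 9.25e-06). Hilpda, an inhibitor of lipid droplet breakdown, fell by 1.67 in cobalt tumours and fell by 1.66 in spontaneous tumours. Lipe also stands on the adipocyte list, whose other measured members include Adipoq at 4.56 in cobalt tumours, 4.13 in spontaneous tumours and 5.20 in control lungs, among the 6064 dimmest genes.

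Of 19 measured genes of fatty acid oxidation, the route that burns rather than builds fatty acids, 2 rose and 2 fell in each tumour group. Cpt1a, which admits fatty acids to mitochondria, fell by 0.74 in cobalt tumours and fell by 0.65 in spontaneous tumours (adjusted p = 0.000177 and 0.000531). Hadhb, a subunit of the mitochondrial trifunctional protein, fell by 0.60 in cobalt tumours and fell by 0.39 in spontaneous tumours (adjusted p = 5.76e-05 and 0.00211). Acadl, an acyl-CoA dehydrogenase, rose 1.21-fold in cobalt tumours and 1.37-fold in spontaneous tumours (adjusted p = 0.0445 and 0.00239).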

How the data were processed

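The deposited values are log2 expression levels by RMA, per the submitters' processing notes, for 45101 probe sets on 18 Affymetrix arrays; the RMA version is not given in the sources used here. They spanned 3.34 to 15.26, and the 18 medians lay at 6.32 to 6.45. Control probe sets (64) and probe sets with several symbols (932) or none (9160) in the platform annotation were left out. The brightest probe set per gene left 18193 genes, and listed genes with no match were not analysed here. All 18 arrays were fitted together by group (limma 3.58.1, R 4.3.3, lmFit and eBayes, two-sided), with Benjamini-Hochberg adjustment over all genes and a threshold of 0.05. The design text names ORIOGEN, which was not run here. The fit was tested on simulated data for cobalt tumour against control lung (18193 genes, 200 changed): it recovered 86% of changes of 1 log2 unit and 93% of changes of 2, and 6.77% of its calls were false. Each simulated gene had the same spread in every group, unlike the arrays here. The median within-group tumour SD was 0.50 for the members and 0.23 for all genes, so these rates do not measure recovery for the members. Precision is limited by 6 arrays a group. The members and lists were chosen with earlier results of these data known. Every member could be named, and of other lists up to 3 genes with the smallest p per direction and comparison.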

Additional observations from a re-analysis of the deposited data

Results flagged for a closer look

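Of 99 groups of 6 arrays (33 members in 3 groups), 12 held 1 array far from the other 5 by Dixon's criterion, where chance gives about 1 in 20. In cobalt tumours, tumour 6 stood high for Scd2 (13.39, next 12.83), Mvk (8.17, next 7.84), Idi1 (10.86, next 8.88) and Fdps (10.84, next 9.72). In spontaneous tumours, tumour 6 stood high for Mvk (8.2, next 7.74), Lss (8.65, next 7.34) and Nsdhl (9.76, next 9.04), and tumour 2 stood low for Scd2 (11.30, next 12.52) and Fads1 (7.94, next 9.13). In control lungs, array 2 stood low for Idi1 (8.68, next 9.26) and Insig1 (7.61, next 8.0), and array 1 stood high for Dgat2 (9.03, next 7.89).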

How the results depend on the processing

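The 20 calls of members against control lung were recomputed under 31 other settings: 573 of 620 values kept direction and call, 46 lost the call and 1 turned, Srebf2 in spontaneous tumours at 0.21 with the second probe set. For Fasn, Dhcr7, Srebf1 and Plin2, which have a single probe set, the settings that change the probe set could not alter the difference. Members called numbered 12 in cobalt tumours with array weights (7 higher, 5 lower). Leaving out 1 array at a time gave 5 to 10 members and 5573 to 6763 genes in cobalt tumours, and 11 to 15 members and 5590 to 6517 genes in spontaneous tumours. The cobalt call of Gpam was lost in 6 settings, among them the exact permutation test (adjusted p = 0.108) and the fits without cobalt tumour 1, 4 or 5, and the causes were not tested. Between cobalt and spontaneous tumours, 15 genes were called; the count was 26 without the 6064 dimmest genes, 24 with array weights, 1 with only those arrays, 29 with Y-linked RNA as a covariate, 0 in arrays of high Xist, 54 without control lung 1 and cobalt tumour 6, 65 without spontaneous tumours 2 and 6, 0 by exact permutation, and 1 (without cobalt tumour 1) to 82 (without cobalt tumour 6) leaving out 1 array. The replicate numbers did not pair the arrays (r of deviations -0.338 to 0.195); with a replicate block, 7 members were called in cobalt tumours, 13 in spontaneous tumours and 1 gene between the tumour groups. A second probe set changed the call of 2 of 26 members in cobalt tumours and 3 in spontaneous tumours, and the sign of 8 in each.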
